A study of Mus musculus with 10 samples.

Results

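H3K9me3 regions that carry no H3K27me3 were described in Glast+ cells of the mouse retina. Chromatin immunoprecipitation and sequencing (ChIP-seq) of 4 histone H3 modifications had been performed on Glast+ cells from retinas of C57BL/6 mice at postnatal day 28. Glast, the glutamate transporter encoded by Slc1a3, marks Müller glia, the glial cells that span the retina. Each modification was mapped in 2 experiments, named Exp1 and Exp2, and the deposited data are 8 lists of enriched intervals, called islands. No group was treated or mutated, and the labels name neither the animals behind each experiment nor whether they were shared, so the spread between experiments may be technical. The lists hold no read counts, and the depth behind each is unknown. Of 10 Müller glia marker genes, 9 had H3K4me3 within 1 kb of an annotated gene end in both experiments, all but Aqp4. So did 5 of 7 rod genes, 0 of 5 microglia genes and 1 of 5 endothelial genes, against 58.6% of all protein-coding genes. In longer lists the counts were 20 of 22 Müller glia genes, 27 of 30 rod and cone genes and 2 of 18 microglia and endothelial genes. These counts therefore did not set Müller glia apart from photoreceptors.

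The regions were chosen by the island lists themselves. Every run of bases covered by H3K9me3 in both experiments and at least 3 kb long was kept when it shared no base with an H3K27me3 island of either experiment. Of 5989 shared runs, 341 (5.69%) were free of H3K27me3, and 5648 touched it. The count depended on how the experiments were combined: with a single experiment for both marks, 1938 regions (Exp1) or 2189 regions (Exp2) were free. The free regions summed to 12.12 Mb, against 426.786 Mb in the regions touching H3K27me3. They made up 2.76% of the shared H3K9me3 length and 0.445% of the mapped length, counted on each chromosome up to the last base of any island. Their number, width and distance to H3K27me3 follow from this rule and are given as description. The H3K4me3 and H3K4me1 lists, the gene annotation and the chromosomes took no part in the choice.

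H3K9me3 is the mark of constitutive heterochromatin. It is written by the methyltransferases Suv39h1, Suv39h2 and Setdb1, and bound by HP1 proteins. Setdb1 is brought to DNA by Trim28, the corepressor of KRAB zinc finger proteins, which recognise transposable elements, and the clustered genes that encode these proteins can carry H3K9me3 themselves. H3K27me3, by contrast, is deposited by Polycomb repressive complex 2 and marks silenced developmental genes. In many cell types the marks occupy different domains, whereas most of the H3K9me3 length in these lists touched H3K27me3.

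The annotated sequences inside the free regions included few genes. Among them were 7 of 1228 annotated miRNA genes (0.57%), against 32 in the regions touching H3K27me3. Per Mb of sequence this was 0.578 miRNA genes in free regions, 0.0750 in regions touching H3K27me3 and 0.521 elsewhere. Of the 7, 6 lay on the X chromosome. Mir743, Mir743b, Mir742 and Mir883a shared a region of 87 kb (chrX:66699001-66786000), and Mir509 lay farther along the same chromosome. Along that stretch, 5 of 22 miRNA genes were in free regions and 17 were in no shared H3K9me3 region. This X-linked family is known in mouse for expression in the testis. Mir1906-2 lay in the widest free region, and Mir344i in a free region of chromosome 7. Their mature sequences, from RefSeq (GRCm38.p6), are shown because they are the only miRNAs annotated in free regions, with the seed (bases 2 to 8) in capitals:
mmu-miR-344i: aAGUCAGGcuccuggcugga
mmu-miR-743a-3p: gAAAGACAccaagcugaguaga
mmu-miR-743a-5p: uAUUCAGAuuggugccugucau
mmu-miR-743b-3p: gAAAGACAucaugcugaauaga
mmu-miR-743b-5p: uGUUCAGAcugguguccauca
mmu-miR-742-3p: gAAAGCCAccaugcuggguaaa
mmu-miR-742-5p: uACUCACAugguugcuaauca
mmu-miR-883a-3p: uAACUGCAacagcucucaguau
mmu-miR-883a-5p: uGCUGAGAgaaguagcaguuac
mmu-miR-509-3p: uGAUUGACauuucuguaaugg
mmu-miR-509-5p: uACUCCAGaauguggcaaucau
mmu-miR-1906: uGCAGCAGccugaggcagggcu
The 12 mature sequences had 11 different seeds. Only miR-743a-3p and miR-743b-3p, from neighbouring genes, shared one, AAAGACA.

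Promoters inside free regions differed with the presence of H3K4me3. Of the RefSeq promoter windows of protein-coding genes (300 bases around a transcription start), 25 windows of 23 genes lay wholly in free regions. They held a median of 6 CpG dinucleotides, against 2 in the 2297 windows inside regions touching H3K27me3 and 15 in the 18941 windows elsewhere. The 6 windows with H3K4me3 of both experiments held 11 to 29 CpG (median 17), and the 19 without it held 0 to 22 (median 3). In the windows elsewhere the medians were 22 with H3K4me3 and 4 without, so windows outside these regions differed in the same direction. The first 4 sequences below carried H3K4me3 in both experiments and the last 2 did not. CpG dinucleotides are in capitals, and coordinates are GRCm38.p6:
Lcorl (chr5:45857491-45857790, minus strand): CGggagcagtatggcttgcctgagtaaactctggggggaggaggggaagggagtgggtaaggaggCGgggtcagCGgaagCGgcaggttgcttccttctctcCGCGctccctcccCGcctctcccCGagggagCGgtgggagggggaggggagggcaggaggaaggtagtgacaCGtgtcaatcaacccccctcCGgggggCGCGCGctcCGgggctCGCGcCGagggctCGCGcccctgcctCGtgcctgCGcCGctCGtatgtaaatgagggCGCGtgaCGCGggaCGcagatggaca
Zfp329 (chr7:12818811-12819110, minus strand): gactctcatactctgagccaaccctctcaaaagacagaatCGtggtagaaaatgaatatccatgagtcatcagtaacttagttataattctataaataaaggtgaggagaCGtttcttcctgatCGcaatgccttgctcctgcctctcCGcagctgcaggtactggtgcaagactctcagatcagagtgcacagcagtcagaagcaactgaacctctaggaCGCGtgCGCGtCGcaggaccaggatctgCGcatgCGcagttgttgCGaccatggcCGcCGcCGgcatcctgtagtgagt
Zfp110 (chr7:12834511-12834810, plus strand): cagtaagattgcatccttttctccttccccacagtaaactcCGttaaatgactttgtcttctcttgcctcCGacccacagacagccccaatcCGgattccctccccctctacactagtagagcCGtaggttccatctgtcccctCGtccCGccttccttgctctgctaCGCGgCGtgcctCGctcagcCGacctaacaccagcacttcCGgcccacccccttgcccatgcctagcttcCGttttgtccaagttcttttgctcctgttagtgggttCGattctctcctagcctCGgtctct
Amph (chr13:18948101-18948400, plus strand): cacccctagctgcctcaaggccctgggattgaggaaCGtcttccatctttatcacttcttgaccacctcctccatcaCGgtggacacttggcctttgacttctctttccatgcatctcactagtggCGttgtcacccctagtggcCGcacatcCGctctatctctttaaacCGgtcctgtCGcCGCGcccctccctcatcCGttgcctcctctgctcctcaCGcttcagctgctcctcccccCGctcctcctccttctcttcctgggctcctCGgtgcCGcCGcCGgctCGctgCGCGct
Olfr1047 (chr2:86228920-86229219, minus strand): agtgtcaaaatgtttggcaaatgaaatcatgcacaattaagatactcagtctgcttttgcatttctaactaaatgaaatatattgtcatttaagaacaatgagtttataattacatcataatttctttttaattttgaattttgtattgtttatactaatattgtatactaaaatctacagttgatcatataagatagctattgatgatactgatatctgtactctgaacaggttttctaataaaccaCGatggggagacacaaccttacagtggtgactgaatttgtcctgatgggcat
Spam1 (chr6:24790938-24791237, plus strand): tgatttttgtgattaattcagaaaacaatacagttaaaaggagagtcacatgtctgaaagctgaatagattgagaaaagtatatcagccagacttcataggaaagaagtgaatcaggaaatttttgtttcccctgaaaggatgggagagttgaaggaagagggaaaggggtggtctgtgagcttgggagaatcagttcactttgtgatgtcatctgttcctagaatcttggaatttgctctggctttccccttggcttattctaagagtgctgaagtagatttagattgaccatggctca
Lcorl and Amph had the most CpG of the windows with H3K4me3, while the window of Spam1, which encodes a sperm surface hyaluronidase, had 0. Olfr1047 encodes an olfactory receptor, and its window had 1. The motif TGCCGC, bound by Zfp57 when its CpG is methylated, was searched on both strands and was present in 2 of the 25 windows (8%), those of Lcorl and Amph, against 14.1% of all 21263 windows. TATAAA, searched the same way, was present in 5 of 25 (20%), against 12.6% of all windows.

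Free regions were narrower than regions touching H3K27me3. Their median width was 30 kb, with quartiles of 9 and 51 kb and a range of 3 to 282 kb, against a median of 39 kb, quartiles of 18 and 75 kb and a range of 3 to 3351 kb in regions touching H3K27me3. Under 10 kb lay 100 free regions (29.3%), against 862 regions touching H3K27me3 (15.3%). Over 100 kb lay 17 free regions (4.99%), against 879 (15.6%). A wide region meets an H3K27me3 island more readily, so the rule itself favours narrow ones. The widest 72 free regions held 50% of the free length.

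**Figure D1:**
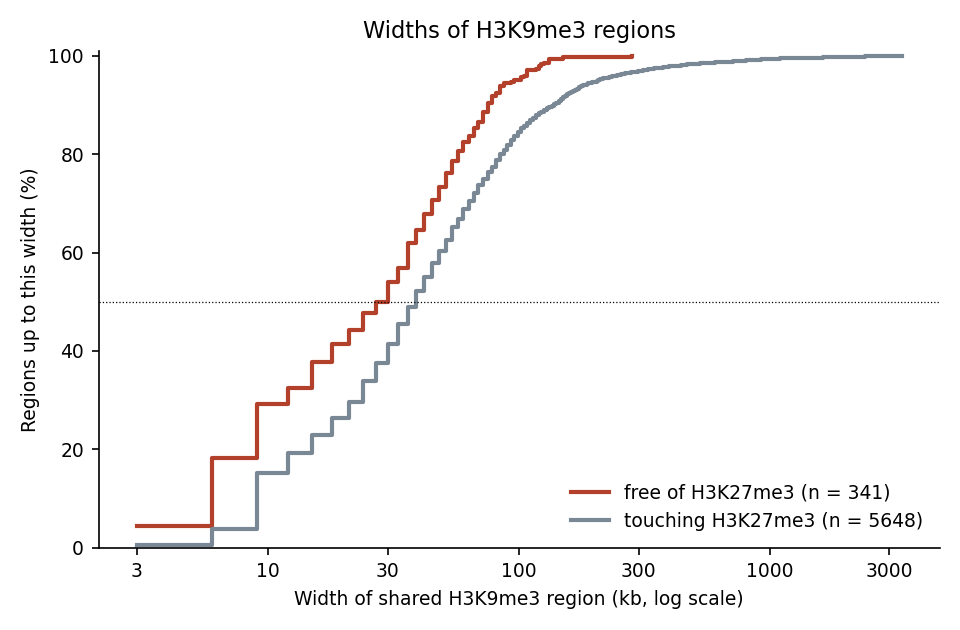
Share of regions (y axis, %) up to a given width (x axis, kb, log scale) for the 341 regions free of H3K27me3 and the 5648 touching it. The free regions reach 50% at 30 kb and end at 282 kb, while those touching H3K27me3 reach 50% at 39 kb and extend to 3351 kb.

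The 12 widest free regions, of 108 to 282 kb, summed to 1.65 Mb (13.6% of the free length). The widest was on the X chromosome (chrX:88509001-88791000, 282 kb) and held the pseudogenes Gm8864, Gm14795, Ppp4r3c-ps and Gm8876 beside Mir1906-2. The next was on chromosome 3 (chr3:72507001-72657000, 150 kb) and held no annotated gene. Of the 12, 5 held no annotated gene at all and only 2 held a protein-coding gene, 4933402E13Rik and 4930415L06Rik, both on the X chromosome. An H3K4me3 or H3K4me1 island of either experiment was present in 1 of them, on chromosome 15 (chr15:14094001-14226000), where Exp2 alone had 2 kb of H3K4me3. Of 4 regions of 108 kb, the width of the narrowest of the 12, 2 were left out of the 12, on chromosomes 2 and X.

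Near the threshold, the members closest to H3K27me3 were the region of Zfp354c and Zfp879 on chromosome 11, 10 kb from the nearest H3K27me3 island, and that of Zfp809, Zfp599 and Zfp810 on chromosome 9, at 17 kb. In all, 5 members lay within 20 kb, 125 within 50 kb and 44 over 200 kb away. The median distance was 64 kb (quartiles 40 and 116 kb) and the greatest 862 kb. Just outside the rule stood a region of 180 kb on chromosome 4 with 6 kb (3.33%) in H3K27me3 and one of 87 kb on chromosome 14 with 5 kb (5.75%). Only 9 regions touching H3K27me3 were covered over less than 10% of their length, and 3313 were covered wholly. Of the 5648, H3K27me3 of Exp1 alone barred 2008, that of Exp2 alone barred 18, and that of both experiments barred 3622. The H3K27me3 islands of Exp1 covered more of the mapped length (25.9%) than those of Exp2 (19.4%). For 89 of the 341 members the shared run was free while a parent H3K9me3 island of Exp1 or Exp2 touched H3K27me3 elsewhere, and for 252 both islands were free over their whole length.

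Members also lay in less significant islands. By the authors' p-values, 39.6% of free regions were in an Exp1 H3K9me3 island from the lower 50% of p-values in that list, against 71.5% of regions touching H3K27me3. In Exp2 the shares were 37.5% of free regions and 52.8% of those touching H3K27me3.

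The X chromosome held more free length than any other chromosome. It had 49 regions with 2.481 Mb, which was 20.5% of all free length, against 13.9% of the length touching H3K27me3 and 6.28% of the mapped length. Free regions covered 1.45% of the X chromosome, against 0.390% of autosomal length. Per 10 Mb there were 2.87 free regions on the X chromosome and 1.16 on the autosomes. The X regions were also wider, with a median of 42 kb, against 24 kb on autosomes. Among shared H3K9me3 regions, 8.77% of those on the X chromosome were free, against 5.3% of those on autosomes. The share was 8.66% on chromosome 15 and 14.3% on the Y chromosome, so the X chromosome was not the highest. Of the shared H3K9me3 length on the X chromosome, 4.02% was free, against 2.55% on autosomes, 6.58% on chromosome 15 and 4.69% on chromosome 16. Regions touching H3K27me3 covered the X chromosome more than any other as well, over 34.6% of its length. With each experiment used alone the X share of free length was 13.4% (Exp2) and 8.72% (Exp1), and it was 12.6% when H3K9me3 of both experiments was kept and only H3K27me3 of both experiments barred a region.

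Autosomes differed among themselves. Chromosome 15 had the most free regions per 10 Mb, 2.12, and 6.58% of its H3K9me3 length was free. Chromosome 7, which had the largest autosomal coverage by regions touching H3K27me3 (28.2% of its length), held only 4 free regions, 1.58% of its shared regions. Chromosome 19 held 2 and the Y chromosome 7. Most free regions stood alone: joined over gaps of up to 250 kb, the 341 regions made 305 groups, of which 274 held a single region and 4 held 3 or more. The largest of these held 4 regions on the X chromosome (chrX:89838001-90261000).

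**Figure D2:**
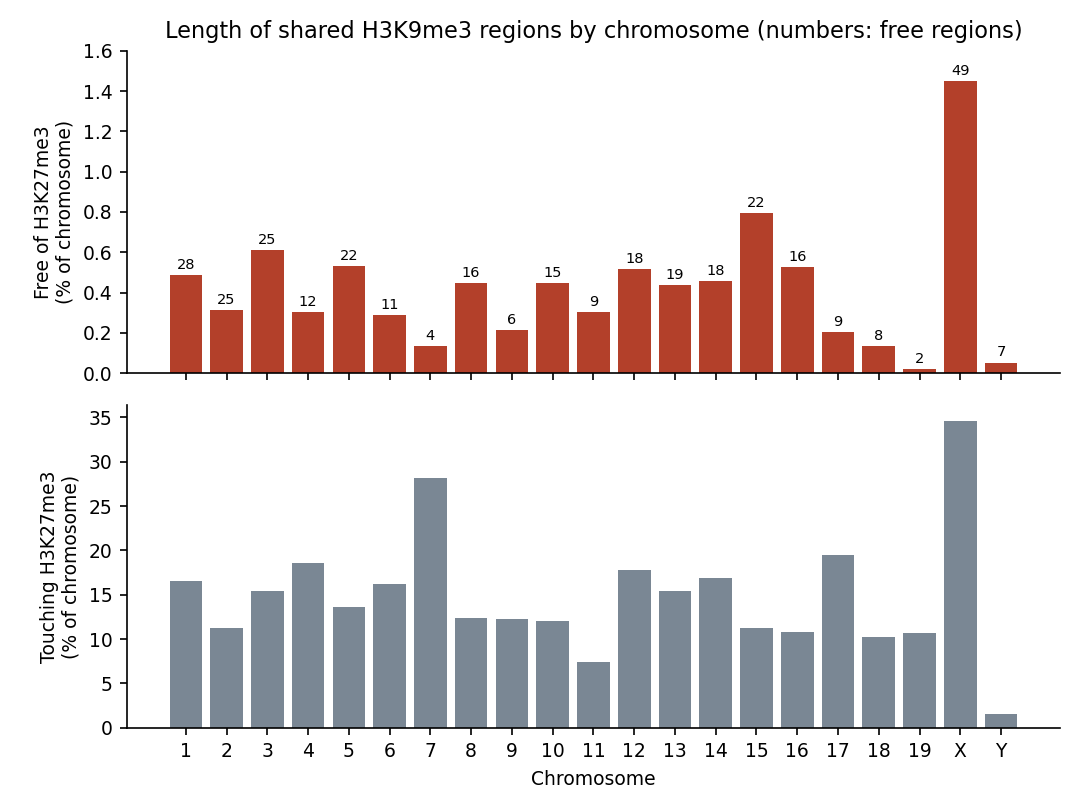
Percent of each chromosome covered by shared H3K9me3 regions free of H3K27me3 (upper panel, with the number of regions above each bar) and touching H3K27me3 (lower panel). The X chromosome is highest in both panels, at 1.45% for free regions and 34.6% for regions touching H3K27me3, while chromosome 7 is high only in the lower panel.

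Marks of active chromatin were absent from most free regions. H3K4me3, the mark of active promoters, was present in 31 free regions (9.09%) in Exp1 and 55 (16.1%) in Exp2, against 831 (14.7%) and 2087 (37.0%) of the regions touching H3K27me3. Over the experiments this was 12.6% ± 4.98 of free regions and 25.8% ± 15.7 of regions touching H3K27me3 (SD, n = 2 experiments each). Both kinds of region were scored in the same experiments, so their values are paired. Free regions were lower in both experiments, with a wider gap in Exp2. The difference between the means was smaller than the SD in the regions touching H3K27me3. That SD is a spread between experiments, not an error of the difference. H3K4me1, which marks enhancers and the flanks of promoters, was present in 31 free regions (9.09%) in Exp1 and 33 (9.68%) in Exp2, against 673 (11.9%) and 1781 (31.5%). No test was run on these shares, because with 2 experiments an exact two-sided permutation test, paired or not, cannot reach 0.05. With Exp2 alone for every mark, including the choice of regions, H3K4me3 was present in 25.2% and H3K4me1 in 18.9% of free regions, and with Exp1 alone in 6.19% and 12.1%. No H3K4 island of either experiment was present in 258 free regions (75.7%), against 2695 regions touching H3K27me3 (47.7%).

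Counting only bases marked in both experiments, H3K4me3 was present in 24 free regions (7.04%), against 612 regions touching H3K27me3 (10.8%) and 10.6% of all shared regions. For H3K4me1 the counts were 15 free regions (4.40%), against 353 (6.25%) and 6.14% of all shared regions. Of the free regions, 11 had both marks, 13 had H3K4me3 alone and 4 had H3K4me1 alone. Width touched this comparison. Among regions of 3 to 9 kb, H3K4me3 was present in 11 of 100 free ones (11%) and 10.6% of those touching H3K27me3 (91 of 862). Among regions of 63 kb or more it was present in 3.33% of free ones (2 of 60) and 15.5% of those touching H3K27me3 (274 of 1764). The near-equal shares of narrow regions held only for bases marked in both experiments and for Exp1: at 3 to 9 kb, H3K4me3 of Exp1 was present in 15% of free regions, against 14.7%, and that of Exp2 in 27% of free regions, against 44.8% of those touching H3K27me3.

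**Figure D3:**
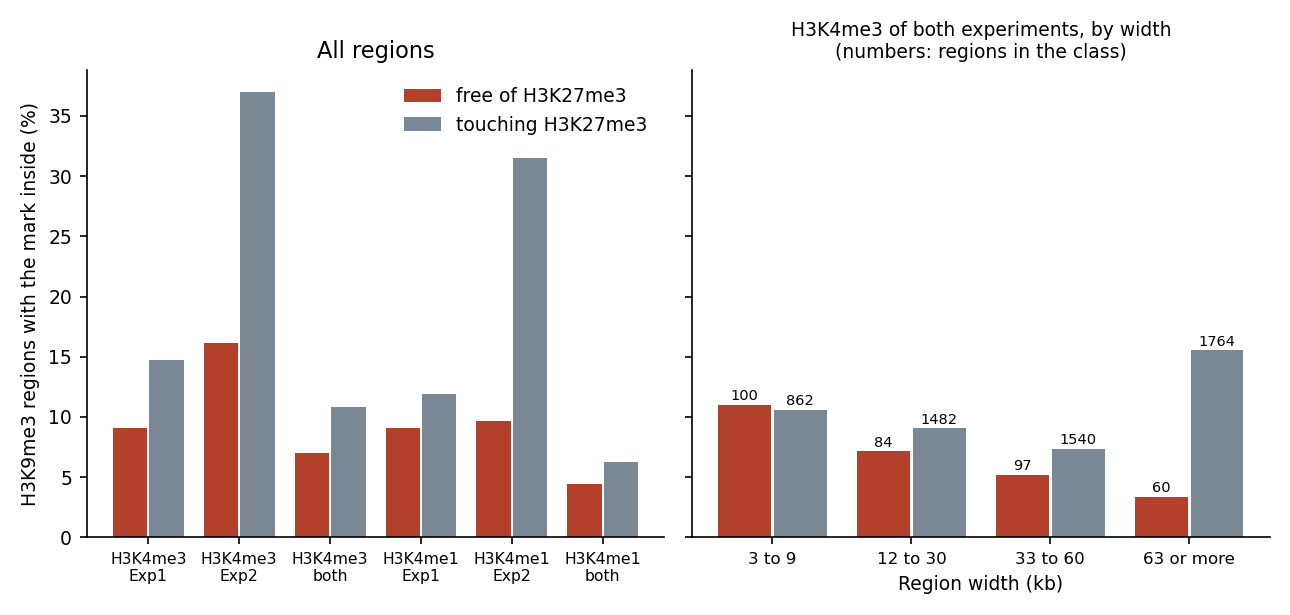
Percent of H3K9me3 regions that hold the mark (y axis), for regions free of H3K27me3 (left bar of each pair) and touching it (right bar). The left panel gives H3K4me3 and H3K4me1 in Exp1, in Exp2 and at bases marked in both; the right panel gives H3K4me3 of both experiments by region width in kb. Free regions are lower in each pair except for H3K4me3 at 3 to 9 kb, where the values are 11% and 10.6%.

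A single region dominated the marked length. H3K4me3 of both experiments covered 0.851% of the free length, against 0.690% of the length touching H3K27me3 and 1.65% of the mapped length. Of its 103.2 kb in free regions, 49.4 kb lay in a region of 54 kb near the distal end of the X chromosome (chrX:169971001-170025000). This region held part of Mid1, a ubiquitin ligase gene that spans the pseudoautosomal boundary in C57BL/6 mice, with G530011O06Rik and Erdr1. H3K4me3 covered 50.2 kb of it in Exp1 and 49.6 kb in Exp2, and H3K4me1 covered 51.6 kb in Exp1 and 51 kb in Exp2. The islands of H3K9me3, H3K4me3 and H3K4me1 thus overlapped over nearly its whole width in both experiments. Whether reads could be placed uniquely at this boundary was not tested, and the marked length there carries that limit. Without this region, H3K4me3 covered 0.446% and H3K4me1 0.327% of the free length, against 0.746% for H3K4me1 with it. H3K4me1 of both experiments covered 0.382% of the length touching H3K27me3 and 4.38% of the mapped length. In Exp1, H3K4me1 covered 1.34% of the free length (0.923% without this region), against 0.780% of the length touching H3K27me3. In Exp2 the values were 1.11% (0.691% without this region) and 2.54%.

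The H3K4me3 inside free regions formed 26 separate stretches. Of these, 11 (42.3%) lay within 1 kb of an end of a protein-coding gene, against 293 of 988 (29.7%) in regions touching H3K27me3 and 69.8% of all 16342 stretches on the mapped chromosomes. The other 15 lay away from such ends, 10 of them inside genes: Plxdc2, Cdh12, which held a pair, Cdh18, Chd9, Litaf, Nrros, Itgb5, Rftn1 and Dctn4. Only the outermost ends of each gene were used here, so such a stretch may lie at a transcription start within the gene. H3K4me1 of both experiments overlapped 5 of the 15, against 127 of 695 (18.3%) such stretches in regions touching H3K27me3 and 65.9% on the mapped chromosomes. The 10 regions with H3K4me3 at a gene end were 6 to 66 kb wide (median 34.5 kb). The 14 regions with H3K4me3 only elsewhere were 3 to 69 kb wide, with a median of 6 kb. The region inside Chd9, a chromatin remodeller gene, was 6 kb wide and had H3K4me3 over 5 kb and H3K4me1 over 5.6 kb of it in both experiments.

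Genes at whose ends H3K4me3 lay in a free region covered several roles. Hspa14, which encodes a ribosome-associated chaperone, had only 0.147 kb inside its free region of 6 kb. The 3.4 kb of H3K4me3 of both experiments there lay outside the gene, within 1 kb of its end. Lcorl, a transcription factor gene, had 3 kb in a region of 66 kb, the same length in Exp1 and in Exp2, with 11.2 kb of H3K4me1 in Exp1 and 0 in Exp2. Amph, which encodes amphiphysin, a protein of synaptic vesicle endocytosis, had 4 kb of H3K4me3 in Exp1 and 4.8 kb in Exp2. Its H3K4me1 covered 11.8 kb in Exp1 and 5.6 kb in Exp2. Cngb3, a subunit of the cone photoreceptor cyclic nucleotide-gated channel, had 4 kb of H3K4me3 in Exp1 and 2 kb in Exp2, and its free region of 27 kb held 18.151 kb of the gene. Rbm12b1, an RNA-binding protein gene, had 2.6 kb in Exp1 and 3.6 kb in Exp2. These genes had H3K4me3 in both experiments, although its length varied between them.

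Genes were sparse in free regions. An annotated gene of any kind was present in 158 free regions (46.3%), against 50.1% of regions touching H3K27me3, and a protein-coding gene in 105 (30.8%), against 1694 of the 5648 regions touching H3K27me3. Protein-coding genes covered 17.8% of the free length, 14.3% of the length touching H3K27me3 and 37.9% of the mapped length. By midpoint there were 2.72 protein-coding genes per Mb in free regions, 6.21 in regions touching H3K27me3 and 8.41 elsewhere. Pseudogenes numbered 5.12 per Mb in free regions, 7.48 in regions touching H3K27me3 and 3.22 elsewhere. In all, 111 of 21887 protein-coding genes (0.507%) shared a base with a free region. Of the 111, 67 had neither end inside, 23 had exactly 1 end inside and 21 lay wholly inside. An end lay inside for 44 genes (0.201% of all).

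Genes crossed by a free region without an end inside must span the whole region, so the class itself favours long genes. Their median length was 308 kb, against 17.2 kb for all protein-coding genes. A long gene also meets any region more readily. Genes over 200 kb were held most often, 42 of 990 (4.24%), against 17 of 7926 genes of up to 10 kb (0.214%). Regions touching H3K27me3 showed the same order at the top, with 40.6% of genes over 200 kb, and 20.9% of genes of up to 10 kb. Examples were picked after their values were seen and stand for no functional group. The contactin gene Cntn5 had 87 kb in free regions of its 1271 kb, and Cntn6 63 kb of 371 kb. The cadherin gene Cdh12 had 36 kb of 1150 kb. Grik2, a kainate receptor subunit gene, had 72 kb of 696 kb, and Csmd3, which encodes a large membrane protein of synapses, 42 kb of 1212 kb. Il1rapl1, an X-linked gene of synapse formation, had 42 kb of 1375 kb. Fstl5 had 102 kb of 636 kb. Of the 67 genes, 61 (91.0%) had H3K4me3 at an end in both experiments, against 412 of 605 (68.1%) genes crossed in this way by regions touching H3K27me3. Over all genes longer than 200 kb the share was 76.6%. That reference differs in length from both sets, since only 38 of the 67 and 333 of the 605 were over 200 kb.

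Genes wholly inside a free region can be no longer than that region. They were short, with a median of 2.756 kb. Of these 21, 6 lay on the X chromosome, among them H2ab2, which encodes a testis histone variant, and the predicted genes Gm1140 and Gm14692. H3K4me3 was present at an end of 4 of the 21: Zfp110, Zfp599, Zfp354c and the predicted gene Gm40453. Of the 44, 19 (43.2%) had H3K4me3 at an end. The share was 14.5% (409 of 2822) for genes with an end in a region touching H3K27me3. Over all protein-coding genes it was 58.6%. Either gene end counted, also one outside the region. The 2 sets differed in make-up. Of the 44, 9 were genes named Zfp, Zkscan or Zscan, a list with H3K4me3 at an end in 83.7%. Regions touching H3K27me3 held 604 olfactory receptor genes, a list with H3K4me3 at an end in 1 of 1110. Whether the gap in shares goes beyond this make-up was not tested.

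Zinc finger genes were the largest named family in free regions. Of 430 genes named Zfp, Zkscan or Zscan, 10 (2.33%) shared a base with a free region, against 0.507% of all protein-coding genes, and 115 (26.7%) shared one with a region touching H3K27me3, against 15.7% of all. They made up 10 of the 111 genes in free regions (9.01%), 115 of the 3427 genes in regions touching H3K27me3 (3.36%) and 1.96% of all protein-coding genes. With an end inside there were 9 (2.09%), against 0.201% of all. The 10 genes lay in 6 regions, and neighbours share a region, so they are not separate loci. With regions at least 50 kb from H3K27me3, only 1 of the 10 remained in the count, and with a single experiment 21 (Exp1) or 22 (Exp2) zinc finger genes were held, of which 6 and 8 were among the 10. In those single-experiment sets the shares were 4.88% in Exp1 and 5.12% in Exp2, against 2.72% and 3.08% of all protein-coding genes.

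The region with the most H3K4me3 among them lay on chromosome 7 (chr7:12810001-12870000, 60 kb) and held Zfp110 wholly, 8.895 kb of Zfp329 and 1.666 kb of Zscan18. Its H3K4me3 covered 8 kb in Exp1 and 4.6 kb in Exp2, and its H3K4me1 covered 9.6 kb in Exp1 and 5 kb in Exp2. H3K4me3 of both experiments lay at the starts of Zfp110 and Zfp329, whose promoter sequences are printed above, and Zscan18 had none within 1 kb of its annotated gene ends, although the start that the promoter table lists for it, 6.363 kb outside the region, carried H3K4me3 of both experiments. The region of 57 kb on chromosome 9 (chr9:22227001-22284000) held Zfp599 wholly, 27.117 kb of Zfp809 and 7.264 kb of Zfp810. Zfp809 is a KRAB zinc finger protein known in mouse to silence retroviral elements through their primer binding site. H3K4me3 there covered 2 kb in Exp1 and 1.8 kb in Exp2, and H3K4me1 covered 2.6 kb in Exp1 and 0 in Exp2. On chromosome 11 (chr11:50805001-50835000, 30 kb) Zfp354c lay wholly inside and Zfp879 over 6.007 kb, with 2.4 kb of H3K4me3 in Exp1 and 1.8 kb in Exp2. Zfp182, on the X chromosome, had 18.817 kb in a region of 33 kb (chrX:21012001-21045000) without H3K4me3. Zfp804b, on chromosome 5, differed from the others: of its 575 kb, 114 kb lay in a pair of free regions, with neither gene end inside.

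Some of these genes had the transcription start outside the free region. The start and the other end could be placed for 9 of the 10, all but Zfp182: 7 had a strand and start in the RefSeq promoter table, and Zfp354c and Zfp599 lay wholly inside. The start lay inside for 4 of the 9, Zfp110, Zfp329, Zfp354c and Zfp599, and the other end for 6. The listed start of Zfp809 was 1.289 kb, that of Zscan18 6.363 kb, that of Zfp879 6.552 kb and that of Zfp810 23.638 kb outside the region. Zscan18 is on the minus strand, and its annotated upstream end lay inside the region, which held 1.666 kb of the gene. Zinc finger genes held by regions touching H3K27me3 had the start inside in 88 of 112 (78.6%) and the other end in 100 (89.3%). Over all protein-coding genes that could be placed, the counts for free regions were 25 starts and 34 other ends of 95 genes, against 2501 starts and 2558 other ends of 3174 genes in regions touching H3K27me3. All 7 genes with a listed start had H3K4me3 of both experiments at it. Of all 430 zinc finger genes, 360 (83.7%) had H3K4me3 within 1 kb of an annotated gene end, as did 9 of the 10 in free regions.

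**Figure D4:**
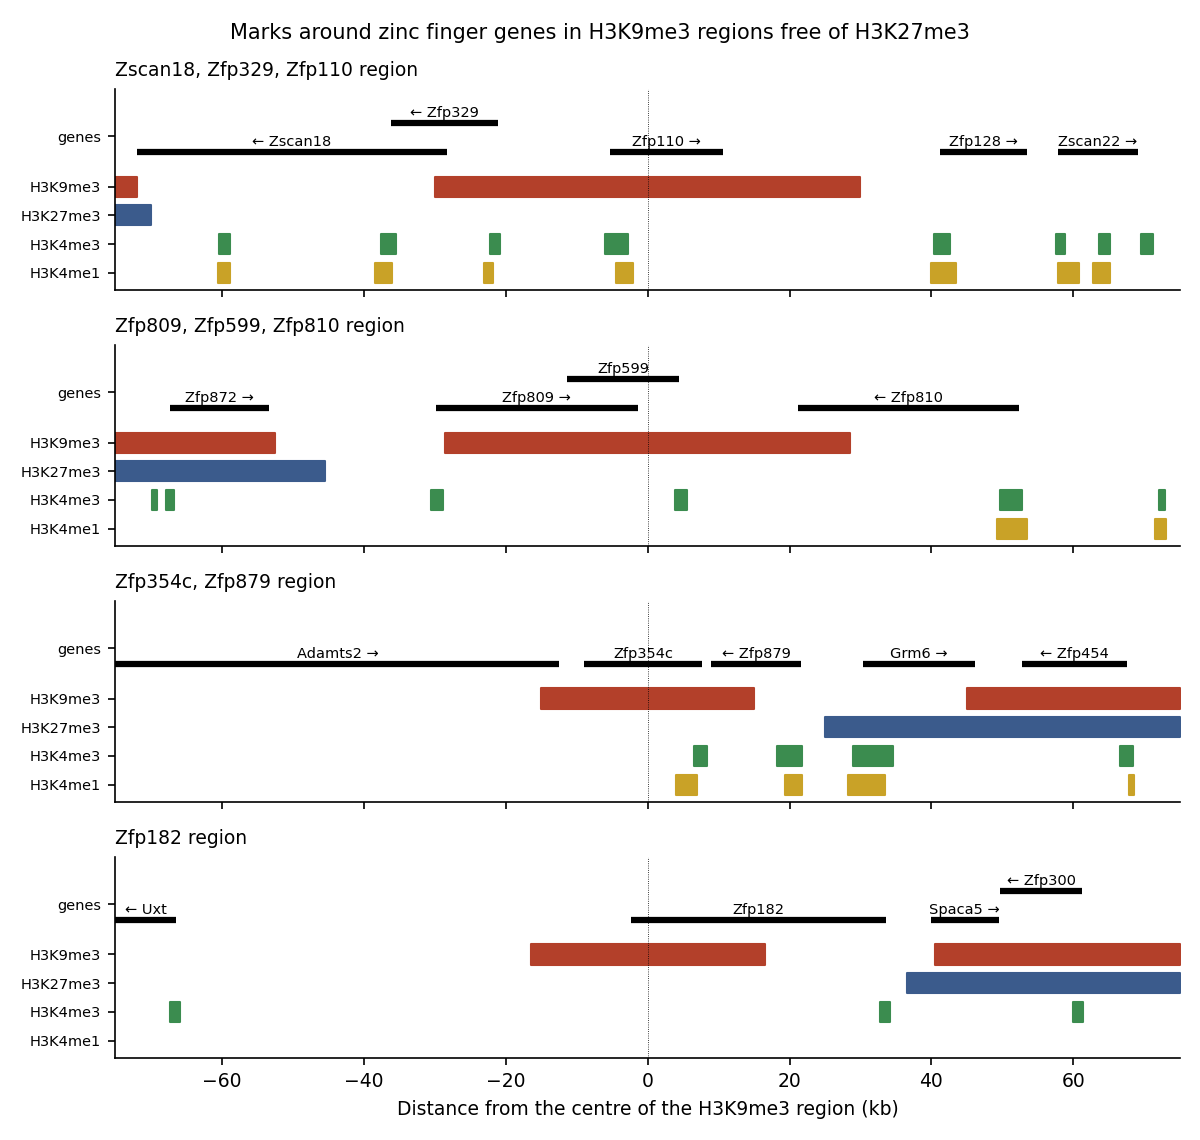
Islands and protein-coding genes around the 4 regions with zinc finger gene ends, by distance from the region's centre (x axis, kb). Bars are H3K9me3, H3K4me3 and H3K4me1 of both experiments and H3K27me3 of either; arrows give the direction of transcription where the promoter table holds it. H3K4me3 lies at the starts of Zfp110 and Zfp329 inside the region and beyond its edge at Zfp809, Zfp810 and Zfp879, with H3K27me3 beginning 10 to 40 kb from the region.

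Other gene families had few members in free regions, which at a share of 0.507% over all protein-coding genes is no result about the families. Of 1110 olfactory receptor genes, 5 (0.450%) were in a free region, against 604 (54.4%) in regions touching H3K27me3. The 5 were Olfr1045 to Olfr1049, neighbours that lay wholly inside a region of chromosome 2 (chr2:86187001-86262000, 75 kb), and none had H3K4me3 at an end. Of the vomeronasal receptor genes, 0 of 230 Vmn1r and 0 of 123 Vmn2r genes were in free regions, against 184 (80%) and 113 (91.9%) in regions touching H3K27me3. Clustered protocadherin genes numbered 0 of 57, against 52 (91.2%), and X-linked testis families 0 of 145, against 95 (65.5%). From tandem secreted and defence families, 3 of 542 (0.554%) were in free regions, against 290 (53.5%): the prolactin family genes Prl3a1 and Prl7c1, and Speer4f1. Of 55 germline genes, Rpl10l, a ribosomal protein gene of the testis, was in a free region, against 8 (14.5%) in regions touching H3K27me3. Of all protein-coding genes, 15.7% were in regions touching H3K27me3. These families share few regions each, so a count of genes exceeds the count of loci.

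For genes of retinal cells, imprinted genes and the other lists, of 18 to 66 members each, the share of 0.507% over all protein-coding genes leaves little room for a count above 0, and their counts are given as description. Cngb3 was 1 of 30 rod and cone genes in a free region. In free regions lay 0 of 22 Müller glia genes, 0 of 35 inner retinal neuron genes, 0 of 23 progenitor and neurogenic genes, 0 of 18 microglia and endothelial genes, 0 of 24 housekeeping genes, 0 of 60 replication-dependent histone genes, 0 of 40 Zbtb genes, 0 of 21 H3K9me3 writer and reader genes and 0 of 66 imprinted genes. Regions touching H3K27me3 held 8 of the 66 imprinted genes (12.1%), among them Snrpn over 423.177 kb, against 15.7% of all protein-coding genes. Peg3, Kcnq1ot1, Airn, Igf2r, Plagl1, Nnat, Mest, Grb10, H13 and Zim1, whose control regions carry H3K9me3 on 1 parental allele in many mouse tissues, shared no base with a shared H3K9me3 region of either kind. Slc1a3, Glul, Zfp57, Trim28 and Setdb1 did not either. Islands of H3K9me3 have a width step of 3 kb and gaps of at least 24 kb, and whether shorter domains could have been called was not tested.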

How the data were processed

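ChIP-seq was performed on chromatin of 25000 Glast+ cells per immunoprecipitation, 500 pg of DNA per library and single-end sequencing at a read length of 50 bases, per the labels' protocols. The authors deposited 1 island list per library, 8 in all, each island with its position and a p-value. Per the submitters' processing notes, the tools were SICER, bedtools 2.17, SAMtools 1.3.1, BWA 0.7.5a and FastQC, with mm10 as genome build. The p-values may be q-values, since their kind, like the settings and control of SICER, was not given in the sources used here. The 2 input libraries were not analysed here. Island widths were multiples of 200 bp for the H3K4 marks, 3000 bp for H3K9me3 and 5000 bp for H3K27me3, so the marks differ in resolution.

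Intervals were intersected with Python 3.11.15, numpy 2.4.6 and pandas 2.3.3, by code tested on simulated intervals, and figures drawn with matplotlib 3.10.9. Overlap meant 1 bp or more. Gene positions came from RefSeq GRCm38.p6, whose coordinates equal those of mm10; it gives no strand, so both gene ends were used, with windows of 1 kb, and starts came from the RefSeq promoter table. Samples were grouped by mark, with the experiment as replicate. No test was run.

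The members and the 18 gene lists were chosen with earlier results of these data known. Genes were named from the 12 widest regions, up to 8 held members of each list, up to 15 genes with an end in a free region that has H3K4me3, the zinc finger regions and a fixed set of imprinted and heterochromatin genes. Long genes without an end inside, genes around H3K4me3 away from gene ends, genes wholly inside and the distal X region were named after their values were seen. Alternatives changed the experiments, the H3K27me3 and p-value limits, widths, overlaps and chromosomes. Leaving out the distal X region and requiring whole islands to be free were chosen after seeing the data.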

Additional observations from a re-analysis of the deposited data

How the results depend on the processing

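Of 80 alternative values, 49 stayed within the spread between experiments or within 1.5 times of a count, and 31 did not. The number of free regions depended most on how the experiments were combined. It ranged from 1938 to 2189 with 1 experiment left out and was 2368 when only H3K27me3 of both experiments barred a region, against 341. It was 216 at 50 kb or more from H3K27me3 and 86 with H3K9me3 islands at or below the median p-value of their list. The median width was 42 kb with a minimum run of 12 kb. The X share of free length ranged from 8.72% to 13.4% with 1 experiment left out, and was 12.6% when H3K27me3 of both experiments was required to bar a region and 60.8% with islands at or below the median p-value.

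The share with H3K4me3 ranged from 6.19% to 25.2% and that with H3K4me1 from 12.1% to 18.9% with 1 experiment left out. H3K4me1 in either experiment was present in 13.8%. With the replicate block, in which regions and marks were combined within each experiment and averaged, the shares were 15.7% for H3K4me3 and 15.5% for H3K4me1. H3K4me3 covered 0.799% to 1.61% and H3K4me1 1.09% to 1.51% of the free length with 1 experiment left out, and H3K4me1 covered 0.327% without the distal X region.

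Protein-coding genes in free regions numbered 595 to 674 with 1 experiment left out, 622 when H3K27me3 of both experiments was required, 24 with islands at or below the median p-value, 26 when at least 50% of the gene lay inside and 47 by a gene end. Zinc finger genes numbered 21 to 22, 20, 4 and 6 under the first 4 of these alternatives, and 1 at 50 kb or more from H3K27me3. Leaving out an experiment also drops its H3K27me3 islands, which widens the pool by construction; the cause of the other changes was not tested. With no read counts, which islands depth alone could add or remove is unknown.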
